A study of Mus musculus with 25 samples.

Results

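The sinoatrial node (SAN), the region of the right heart that paces the beat, and the right atrium (RA), the working muscle beside it, did not change their transcripts in the same way from embryonic day 14.5 (E14.5) to postnatal day 14 (P14) of mouse development. Set against RA, SAN moved downward in Nppb and Sln, 2 of 16 working atrial genes followed, and in Fndc5 and Tnnc1. It moved upward in Lrp2, Rps6ka6, Fam163a, Mylk, Sema3d and Igf1. The quantity followed is the difference in change, the log2 change of SAN from E14.5 to P14 minus the log2 change of RA over the same time. It was taken over 12298 of the 20870 genes in the table, those whose mean deposited value was at least 120 in SAN at P14 or E14.5 and also in RA at P14 or E14.5. That value equals 4.93 CPM, the scale used below, which is read counts scaled for library size and composition by the authors.

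The 4 groups were SAN at P14, SAN at E14.5, RA at P14 and RA at E14.5, with 3 libraries each, and 3 more libraries of each tissue at postnatal day 4 (P4) showed the stage between. Every one of these 18 libraries came from Hcn4-GFP mice, which carry a reporter of the pacemaker channel gene Hcn4, on a mixed strain background, so no group without the reporter was measured. The regions were drawn by hand on frozen sections 8 microns thick and cut out with a laser, and Hcn4 staining of the sections afterwards served as the check of the cut. The labels do not say how many animals gave a library, or whether libraries share an animal, so the spread behind each p-value is that among libraries. P-values are too small where libraries of the same group shared an animal. Where SAN and RA of a stage came from the same animal, the fit left that pairing out. P-values of the tissue difference and of the difference in change could then be too large.

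The node is a small body of cardiomyocytes set in connective tissue, which depolarise on their own through HCN and calcium currents and respond to autonomic nerves through G proteins and cyclic AMP. In these cells the factors Tbx3, Shox2 and Isl1 hold down the working atrial programme of natriuretic peptides and high-conductance connexins. After birth, working myocardium leaves the cell cycle, replaces fetal sarcomere isoforms and comes to rely on mitochondrial oxidation.

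Each library of the 12 held 6608420 to 17997497 reads, so that 1 read was worth 0.0616 to 0.184 CPM, and a value of 0 allows up to 3 reads, or 0.185 to 0.553 CPM. Changes and differences below are of mean log2(CPM + 1), given with the SE of the fit, and they understate the change of genes near or under 1 CPM. A gene was called at an adjusted p under 0.05 in limma, with Benjamini-Hochberg adjustment over the 17568 genes tested, which include all 12298 members. Just inside the rule for members lay Ly6a, at 120 in its higher RA group, and Kif5c, at 120.003. Just outside lay Rbm19, at 119.92 in its higher SAN group, and 4930578N16Rik, at 119.91 in its higher RA group. Of the members, 10247 were above the limit in all 4 groups, while SAN passed through P14 alone for 678 and through E14.5 alone for 872, and RA passed through P14 alone for 508 and through E14.5 alone for 1021. SAN E14.5 library 1 stood apart in ventricular markers, whose summed level was 1503 CPM there and 196 to 293 CPM in the other 2 SAN libraries at E14.5, and in epicardial markers, described below with RA P14 library 2.

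Hcn4 separated the tissues in all libraries. It stood at 1261, 1302 and 1141 CPM in SAN at P14, 1245, 1351 and 1143 CPM in SAN at E14.5, 15.9, 5.17 and 4.43 CPM in RA at P14 and 14.3, 31.1 and 25.5 CPM in RA at E14.5. In SAN at P4 it stood higher, at 3748, 1849.7 and 2144 CPM. The SAN change from E14.5 to P14 was -0.01 ± 0.34, while its low RA level fell by 1.51. The difference in change of Hcn4 was 1.50 ± 0.47 (adjusted p = 0.102). It was called with libraries scaled to an equal mean log2 level of the sarcomere genes (2.11, adjusted p = 0.0108). That scaling also moved the median difference over all genes tested from 0.18 to 0.71. Over all 32 alternatives run, the difference of Hcn4 lay between 0.69 and 2.11. Its highest adjusted p was 0.451 in limma, with library weights.

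The SAN change from E14.5 to P14 was called for 3627 members, of which 1357 rose and 2270 fell. Over all genes tested 24.3% were called, 9.74% upward and 14.5% downward. The RA change was called for 3426 members, 926 upward and 2500 downward, where all genes tested gave 22.7%, 5.99% and 16.7%. These balances rested on the scaling. SAN rises and falls numbered 1782 and 1722 with the trimmed-mean factors recomputed, 2001 and 1732 in DESeq2 and 1670 and 1506 in edgeR on the recovered reads, and 1983 and 1188 with equal sarcomere levels. RA rises and falls numbered 1540 and 1182, 1708 and 1297 and 1454 and 1000 under the first 3 of these, and 1396 and 1343 with equal upper quartiles. Counts of rises and falls within gene lists below are on the authors' scaling, share this limit and are to be read against the shares of all genes tested.

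The difference in change itself was called for 303 members, 220 with SAN moving upward relative to RA and 83 with SAN moving downward. Over all genes tested the shares were 2.27%, 1.64% and 0.632%. Since the members were chosen from the levels of the same 4 groups, nothing is read from how these shares compare. Of the 303, 230 were above the limit for members in all 4 groups.

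Where the 303 genes moved is shown by the plot of the change in SAN against the change in RA. Among the 220 with a positive difference, 31 rose in SAN and fell in RA, 94 rose in SAN with no call in RA, 67 fell in RA with no call in SAN, 17 rose in both, 10 fell in both and 1 was called in neither tissue. Among the 83 with a negative difference, 8 fell in SAN and rose in RA, 28 fell in SAN with no call in RA, 34 rose in RA with no call in SAN, 10 rose in both and 3 fell in both. Most of these genes therefore moved detectably in a single tissue, and opposite calls in both were made for 39 of 303.

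**Figure D1:**
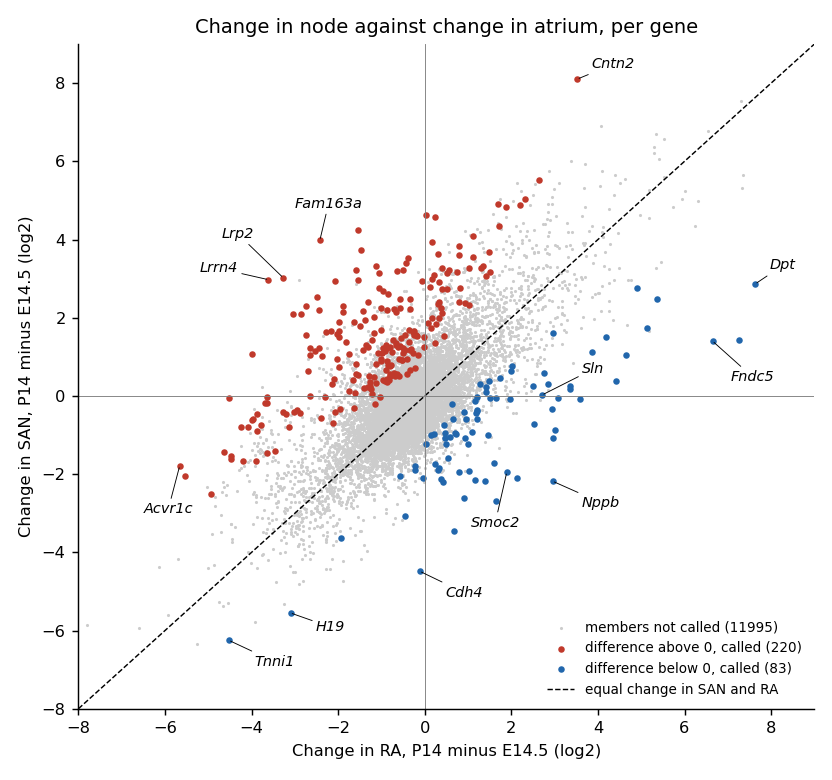
Change from E14.5 to P14 in SAN (vertical axis, log2) against the change in RA (horizontal axis, log2) for the 12298 members. Red points are the 220 members whose difference in change was called above 0, blue points the 83 called below 0, grey points the other 11995, and the dashed line marks an equal change in both tissues. Cntn2 stands at the top with a large rise in SAN, Dpt and Fndc5 far to the right with large rises in RA, and Tnni1 at the bottom left, having fallen in both.

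The direction split depended on how libraries were scaled. It was 220 to 83 on the authors' scaling, 164 to 149 with equal upper quartiles, 163 to 142 with the trimmed-mean factors recomputed, 105 to 101 in edgeR and 313 to 254 in DESeq2 on the recovered reads, and 1765 to 46 with equal sarcomere levels. The median difference over all genes tested was 0.18 on the authors' scaling, and 0.03, 0.02, 0.01, 0.04 and 0.71 under those 5 alternatives in that order, so a difference is best read against the median of its own scaling. All 303 genes kept their sign in all 32 alternatives run. The number called also rested on single libraries, at 154 without SAN E14.5 library 1, 175 without SAN E14.5 library 2, 167 without RA E14.5 library 1, 156 without RA E14.5 library 2 and 176 without RA P14 library 2.

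The P4 libraries took no part in choosing the members or in the value of the difference from E14.5 to P14. They entered the spread of the fit and the filter on low values, and so bore on which genes were called. In the fit of the 12 libraries alone, 577 members were called. At P4, 819 members differed between SAN and RA, 394 higher and 425 lower in SAN (5.96% of all genes tested, 2.97% higher and 2.99% lower). The 220 genes with a positive difference in change held 38 higher and 22 lower in SAN at P4, with a median SAN minus RA of 0.03. The 83 genes with a negative difference held 14 higher and 23 lower in SAN, with a median of -0.05. The medians at E14.5 and P14 are tied in sign to the choice of genes and are given as description. For the 220 genes the median SAN minus RA was -1.24 at E14.5 and 1.03 at P14, with 3 higher and 111 lower in SAN at E14.5 and 87 higher and 1 lower at P14. For the 83 genes it was 1.16 at E14.5 and -0.74 at P14, with 52 higher and 2 lower at E14.5 and 7 higher and 29 lower at P14. Over all genes tested, 5.33% were called between the tissues at E14.5 (in SAN, 2.24% higher and 3.09% lower) and 4.55% at P14 (3.21% and 1.34%). The tissue difference changed sign between E14.5 and P14 for 190 of the 220 and 51 of the 83, narrowed for 15 and 20, and widened for 15 and 12.

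**Figure D2:**
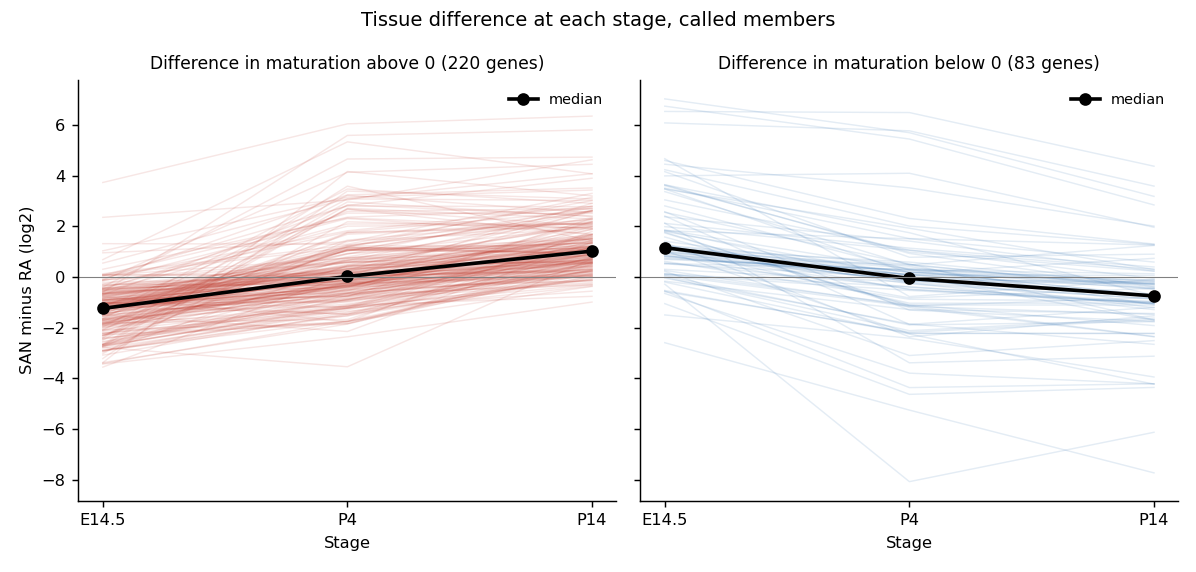
SAN minus RA (vertical axis, log2) at E14.5, P4 and P14 for the 220 members with a positive (left) and the 83 with a negative difference in change (right). Each thin line is a gene and the black line the median, which goes through 0.03 at P4 on the left and -0.05 at P4 on the right.

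Genes whose change was lower in SAN are described first, beginning with the hormones of atrial muscle. Nppb encodes B-type natriuretic peptide. It stood at 0, 0.666 and 0.0801 CPM in SAN at P14, against 13.6, 0.185 and 8.73 CPM in SAN at E14.5. In RA it stood at 270.1, 221 and 283 CPM at P14, against 38.0, 33.0 and 26.6 CPM at E14.5. At these 2 stages the RA groups did not overlap and all RA libraries lay above all SAN libraries, while SAN at E14.5 held a library near 0. Nppb fell in SAN (-2.18 ± 0.68, adjusted p = 0.0211) and rose in RA (2.96 ± 0.68, adjusted p = 0.00283), a difference in change of -5.14 ± 0.96 (adjusted p = 0.00560). On the recovered reads the difference was -8.37 in edgeR and -8.25 in DESeq2, both called. Nppb had 0 reads in all 3 SAN libraries at P4.

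Nppa, encoding the atrial natriuretic peptide, behaved alike in direction. Its level was 3.27, 4.53 and 1.84 CPM in SAN at P14, against 10.4, 1.60 and 34.4 CPM in SAN at E14.5, and 1379.7, 851 and 1453 CPM in RA at P14, against 406, 320.3 and 365 CPM in RA at E14.5. The SAN libraries at E14.5 spread widely, and the difference of -3.04 ± 0.84 had an adjusted p of 0.0573. It was called on the recovered reads in edgeR (-4.2, adjusted p = 0.0262) and in DESeq2 (-4.18, adjusted p = 0.0165), and with equal upper quartiles, trimmed-mean factors recomputed or equal sarcomere levels. Bmp10, a ligand of trabecular and atrial muscle, is no member, since SAN stayed under the limit. It showed 0.818, 0.800 and 0.720 CPM in SAN at P14, against 6.87, 0.123 and 5.42 CPM in SAN at E14.5, and 1354, 1013 and 1148 CPM in RA at P14, against 112, 162 and 77.4 CPM in RA at E14.5, a difference in change of -4.48 ± 0.70 (adjusted p = 0.00117).

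The genes of the 2 peptides lie in tandem on chromosome 4, and their promoters are shown because both transcripts moved toward RA. The sequences are RefSeq's on GRCm38.p6, plus strand, 5′ to 3′, from 250 bases before the annotated start to 50 after, at chr4:147985650-147985949 for Nppb and chr4:148000472-148000771 for Nppa. Capitals mark a TATA box (TATAAA, gene strand), a GATA motif (AGATAA, either strand) in Nppb and a T-box motif (AGGTGTGA, here as its reverse complement TCACACCT) in Nppa. The GATA search took AGATAA alone, so other forms, such as the TGATAA present in both sequences, are not marked or counted.
Nppb: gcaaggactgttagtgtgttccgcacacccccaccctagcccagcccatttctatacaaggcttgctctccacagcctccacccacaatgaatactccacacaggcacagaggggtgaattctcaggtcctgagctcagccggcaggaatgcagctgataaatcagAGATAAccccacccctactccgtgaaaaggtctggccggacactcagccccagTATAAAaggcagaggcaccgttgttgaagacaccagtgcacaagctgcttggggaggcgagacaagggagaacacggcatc
Nppa: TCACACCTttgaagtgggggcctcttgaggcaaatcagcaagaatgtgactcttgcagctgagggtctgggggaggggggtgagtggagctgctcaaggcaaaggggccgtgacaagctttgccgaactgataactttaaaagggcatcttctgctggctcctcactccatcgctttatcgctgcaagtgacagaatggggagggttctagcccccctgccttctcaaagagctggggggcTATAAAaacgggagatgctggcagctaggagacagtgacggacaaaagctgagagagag
The TATA box begins 31 bases before the start in Nppb and 9 before in Nppa, the GATA motif begins at -84 and the T-box motif at -250. No 2 of these matches overlap. Of all 32851 RefSeq promoters of this length, 8.32% hold the TATA box, 11.2% the GATA motif and 1.28% the T-box motif. Among the promoters of the called members, the T-box motif was in 1 of 213 with a positive and 0 of 85 with a negative difference, and the GATA motif in 16 and 3. These matches describe letters in the window and show no binding.

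The list of working atrial genes held 16 members, of which 0 were called with a positive and 2 with a negative difference. The median difference was -0.97 against 0.18 over all genes tested, and it stayed below 0 under every scaling (-0.33 against 0.71 with equal sarcomere levels). In SAN 0 of the 16 rose and 1 fell, while in RA 9 rose and 0 fell. Of all genes tested, 9.74% rose and 14.5% fell in SAN, and 5.99% rose and 16.7% fell in RA. The second call was Sln, sarcolipin, an inhibitor of the sarcoplasmic calcium pump that is prominent in atrial muscle. Sln stood at 317, 294 and 222 CPM in SAN at P14, against 256, 216 and 353 CPM in SAN at E14.5, and at 678, 333 and 914 CPM in RA at P14, against 106, 88.6 and 75.9 CPM in RA at E14.5. SAN libraries of both stages overlapped, and RA at P14 lay above RA at E14.5. The tissues exchanged order, with SAN above RA at E14.5 and below it at P4 and P14 in every library, and the difference in change was -2.69 ± 0.41 (adjusted p = 0.000946).

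Fndc5, the precursor of the secreted peptide irisin, gave the largest negative difference of the named members. It rose in both tissues, with 52.0, 88.5 and 47.7 CPM in SAN at P14, against 20.2, 19.9 and 27.4 CPM in SAN at E14.5, and 559.7, 456 and 593 CPM in RA at P14, against 3.5, 3.68 and 6.15 CPM in RA at E14.5. No pair of the 4 groups overlapped: SAN was the higher tissue at E14.5 and RA at P14. The rise was 1.40 ± 0.38 in SAN and 6.65 ± 0.38 in RA, a difference of -5.25 ± 0.54 (adjusted p = 2.04e-05). By P4 the order had already turned, with 27.7, 7.62 and 10.8 CPM in SAN and 189.9, 195 and 87.6 CPM in RA.

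Doc2g, a member of the double C2 domain family, rose in RA and was not called in SAN. It had 8.02, 34.3 and 5.04 CPM in SAN at P14, against 11.2, 9.0 and 17.3 CPM in SAN at E14.5, and 203, 249 and 238 CPM in RA at P14, against 16.5, 16 and 22.5 CPM in RA at E14.5. The tissues overlapped at E14.5 and were apart at P14, and the difference was -3.66 ± 0.75 (adjusted p = 0.0102), or -3.65 (adjusted p = 0.0661) without SAN E14.5 library 1 and RA P14 library 2. Its promoter on GRCm38.p6, plus strand, chr19:4003135-4003434, is shown because it holds a loose MEF2-like pattern, in capitals, 33 bases before the start. The pattern is CTA, any 4 bases, then TAG, and reads alike on both strands. It does not ask for A or T in the core, which here was CACC, so it is wider than the MEF2 motif.
Doc2g: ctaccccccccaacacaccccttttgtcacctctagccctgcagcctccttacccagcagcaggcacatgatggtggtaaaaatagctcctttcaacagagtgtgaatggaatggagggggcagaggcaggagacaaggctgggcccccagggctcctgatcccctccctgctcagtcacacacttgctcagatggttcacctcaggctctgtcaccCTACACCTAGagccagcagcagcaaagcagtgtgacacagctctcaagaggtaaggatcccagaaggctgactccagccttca
This loose pattern was found in 3.69% of all promoters, in 3 of 85 promoters of genes with a negative difference and in 2 of 213 with a positive one.

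**Figure D3:**
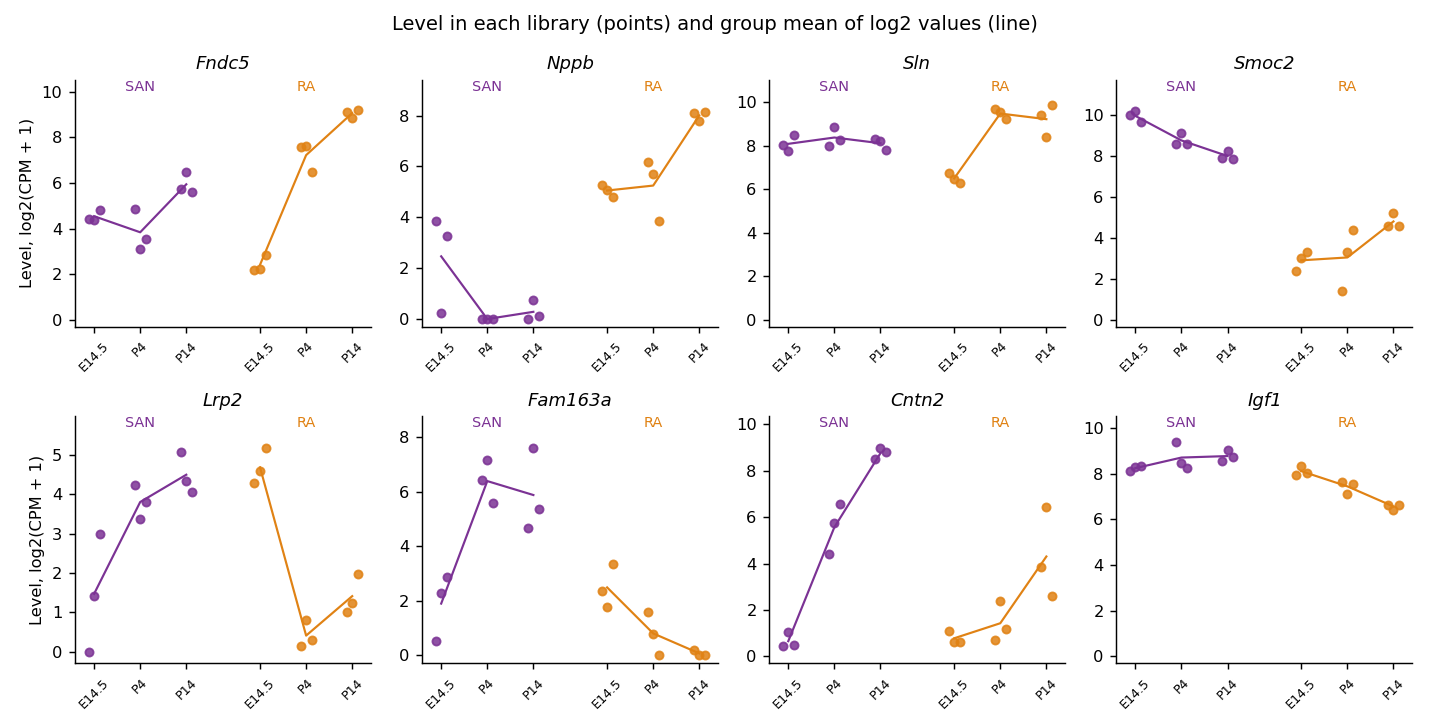
Level of 8 named members in each of the 18 libraries (vertical axis, log2 of CPM + 1) by stage (horizontal axis), with SAN in purple and RA in orange. Points are libraries and lines join the group means of the log2 values. Fndc5, Nppb and Sln gained in RA, Smoc2 lost in SAN, Lrp2 and Fam163a gained in SAN and were lost in RA, Cntn2 gained mainly in SAN, and Igf1 was lost in RA.

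Among the calcium handling genes, 24 were members, 2 were called with a positive and 2 with a negative difference, and the median was 0.30 against 0.18 over all genes tested. Ryr2, the calcium release channel of the sarcoplasmic reticulum, stood at 1480.4, 1959 and 1779 CPM in SAN at P14, against 1600.2, 1837 and 1925 CPM in SAN at E14.5. In RA it stood at 4786, 5006 and 4601 CPM at P14, against 1802, 2266 and 1164 CPM at E14.5. Only RA at P14 stood apart, above the other 3 groups. The difference was -1.56 ± 0.29 (adjusted p = 0.00506), and -0.92 (adjusted p = 0.0741) with equal sarcomere levels. The other negative call was Sln. The 2 positive calls were Sri, sorcin, which binds the release channel, at 1.44 ± 0.31 (adjusted p = 0.0150), and Itpr2, an inositol trisphosphate receptor, at 1.32 ± 0.33 (adjusted p = 0.0351). Both fell in RA, Sri by 1.12 and Itpr2 by 1.63, with no call in SAN. Without SAN E14.5 library 1 and RA P14 library 2 together, their adjusted p was 0.0729 and 0.143, and Itpr2 also lost its call without any 1 of 9 libraries, SAN P14 library 1 or 2, SAN E14.5 library 1 or 2, RA P14 library 1, 2 or 3 or RA E14.5 library 1 or 2 (1.08 to 1.40), and in edgeR (adjusted p = 0.0595).

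Of 27 sarcomere members, 3 had a negative difference and 0 a positive one, with a median of -0.54 against 0.18 over all genes tested. With equal sarcomere levels it was 0.03, which is fixed near 0, since that scaling makes the mean of the sarcomere genes equal in all libraries. In SAN 4 rose and 4 fell (9.74% and 14.5% of all genes tested), and in RA 13 rose and 3 fell (5.99% and 16.7%). The slow and fetal isoforms carried the calls. Tnnc1, the troponin C of slow and cardiac muscle, fell to 273, 254 and 255 CPM in SAN at P14, against 1035, 949 and 693 CPM in SAN at E14.5, and stood at 519, 502 and 593 CPM in RA at P14, against 557, 318 and 537 CPM in RA at E14.5. SAN lay above RA at E14.5 and below it at P14 without overlap, and the difference was -1.99 ± 0.30 (adjusted p = 0.000845).

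Tnni1, the fetal troponin I, fell steeply in both tissues and further in SAN. It had 12.8, 12 and 14.8 CPM in SAN at P14, against 1099.7, 1217 and 936 CPM in SAN at E14.5, and 29.8, 40.7 and 26.1 CPM in RA at P14, against 851, 601 and 823 CPM in RA at E14.5. The difference was -1.73 ± 0.32 (adjusted p = 0.00499). Myh7, the slow myosin heavy chain, rose in RA (1.21 ± 0.19) and had a SAN change of -0.39 ± 0.19, a difference of -1.60 ± 0.27 (adjusted p = 0.00231). All 3 isoforms stayed called with equal sarcomere levels, at -1.35, -1.11 and -0.96. The summed level of 6 cardiac muscle markers was 75198 to 88521 CPM in SAN at P14, 78890 to 81282 CPM in SAN at E14.5, 116116 to 122276 CPM in RA at P14 and 61910.5 to 91299 CPM in RA at E14.5. RA at P14 stood above the other groups, and in captured tissue more muscle cells and more of these transcripts per cell cannot be told apart. The part of this shift in the differences of muscle genes was not tested beyond the sarcomere scaling.

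All 26 members of the respiratory chain list had a difference below 0, with a median of -0.66 against 0.18 over all genes tested. With equal sarcomere levels that median was -0.02, against 0.71 over all genes tested. In RA 21 of 26 rose, and in SAN 4 did, where 5.99% and 9.74% of all genes tested rose. The calls were 0 positive and 2 negative. Ndufa1, a subunit of complex I, stood at 50.8, 74.0 and 61.3 CPM in SAN at P14, against 89.3, 65.1 and 84.3 CPM in SAN at E14.5, and at 60.3, 101 and 73.8 CPM in RA at P14, against 33.0, 35.2 and 30.02 CPM in RA at E14.5. SAN lay above RA at E14.5 and overlapped it at P14, with a difference of -1.56 ± 0.33 (adjusted p = 0.0150) that was -1.47 (adjusted p = 0.0528) without SAN E14.5 library 1. Ndufb5, also of complex I, gave -1.25 ± 0.31 (adjusted p = 0.0338) and lost its call without SAN P14 library 2 or 3, SAN E14.5 library 1 or 3, RA P14 library 2 or 3 or RA E14.5 library 1 or 2 (-1.09 to -1.26). With equal sarcomere levels neither was called, at -0.93 (adjusted p = 0.0778) for Ndufa1 and -0.62 (adjusted p = 0.225) for Ndufb5.

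Fatty acid oxidation held 27 members with 0 positive and 1 negative call. In SAN 10 rose and 1 fell, and in RA 14 rose and 0 fell. The median was -0.27 against 0.18 over all genes tested, and 0.37 against 0.71 with equal sarcomere levels. The call was Fabp4, a fatty acid carrier of capillaries and fat cells. It stood at 86.0, 138 and 123 CPM in SAN at P14, against 23.2, 48.8 and 32.0 CPM in SAN at E14.5, and at 86.3, 91.8 and 113 CPM in RA at P14, against 1.69, 0 and 7.13 CPM in RA at E14.5. SAN exceeded RA at E14.5 and overlapped it at P14, and the difference was -3.38 ± 0.69 (adjusted p = 0.0105). Of 22 glycolysis members, 15 fell and 2 rose in SAN and 8 fell and 4 rose in RA, with 0 positive calls and 1 negative call. Their median difference was -0.54, and 0.09 with equal sarcomere levels, below the 0.18 and 0.71 of all genes tested. The call was Pgam2, the muscle phosphoglycerate mutase, at -1.19 ± 0.29 (adjusted p = 0.0288), which was -0.55 (adjusted p = 0.289) with equal sarcomere levels and was not called without SAN P14 library 1, 2 or 3, SAN E14.5 library 1 or 2, RA P14 library 2 or 3 or RA E14.5 library 1 or 2 (-1.03 to -1.22).

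Genes that mark the node did not move together. The list held 10 members, 1 called with a positive and 4 with a negative difference. Its median was -0.50 against 0.18 over all genes tested, and 0.13 against 0.71 with equal sarcomere levels. In SAN 0 rose and 4 fell (9.74% and 14.5% of all genes tested), and in RA 3 rose and 4 fell (5.99% and 16.7%). At P4, 9 of the 10 were higher in SAN and 0 lower (2.97% and 2.99% of all genes tested). The genes were listed as marks of the node, so nothing is read from that tissue difference. Smoc2, a secreted calcium-binding matrix protein, fell to 240.03, 301 and 234 CPM in SAN at P14, against 1026, 1192 and 811 CPM in SAN at E14.5. In RA it rose to 23.1, 37.2 and 23.6 CPM at P14, against 4.29, 7.37 and 9.0 CPM at E14.5. No 2 groups overlapped, SAN stayed above RA throughout, and the difference was -3.85 ± 0.64 (adjusted p = 0.00193).

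Rgs4 encodes a regulator that speeds the shut-off of inhibitory G protein signals. It had 97.4, 65.2 and 59.5 CPM in SAN at P14, against 158, 128 and 119 CPM in SAN at E14.5, and 12.7, 4.81 and 12.3 CPM in RA at P14, against 0.451, 0.369 and 0 CPM in RA at E14.5. Its rise in RA (3.02 ± 0.41) began from levels under 1 CPM, the SAN change was not called (-0.88 ± 0.41), SAN stayed above RA without overlap, and the difference was -3.90 ± 0.57 (adjusted p = 0.000758). It was -6.35 in DESeq2, -6.31 in edgeR and -2.50 with a pseudocount of 4 CPM, called in each.

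Tbx3, the repressor of the atrial programme in the node, was at 400.2, 459 and 377 CPM in SAN at P14, against 289, 324 and 215 CPM in SAN at E14.5. In RA it was at 16.4, 29.4 and 13.7 CPM at P14, against 1.80, 1.66 and 2.40 CPM at E14.5. The groups did not overlap within either tissue, the RA change was called (2.75 ± 0.34) and the SAN change was not (0.59 ± 0.34), and the difference was -2.16 ± 0.48 (adjusted p = 0.0199). Tbx3 lost its call without SAN E14.5 library 1 or 2, RA P14 library 2 or RA E14.5 library 2 (-1.85 to -2.12), with equal sarcomere levels (-1.56, adjusted p = 0.0565) and with a pseudocount of 4 CPM (-1.36, adjusted p = 0.0736).

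Shox2, the homeobox factor that keeps Nkx2-5 out of node cells, fell to 102, 129 and 152 CPM in SAN at P14, against 507, 644 and 517 CPM in SAN at E14.5. RA held 10.51, 15.9 and 5.02 CPM at P14, against 8.35, 4.61 and 9.35 CPM at E14.5, which overlapped. The difference of -2.49 ± 0.66 (adjusted p = 0.0478) was lost in 12 of the 18 fits that left out 1 library, those without SAN P14 library 1, 2 or 3, SAN P4 library 2, SAN E14.5 library 1, 2 or 3, RA P14 library 1 or 2 or RA E14.5 library 1, 2 or 3 (-2.15 to -2.67). It was lost as well in edgeR (adjusted p = 0.0707), in DESeq2 (0.0718), with equal sarcomere levels (0.0773), with a pseudocount of 0.25 CPM (0.0833) and with no filter on low values, 20 of 32 alternatives in all. Isl1, a homeobox factor of the second heart field and the node, is no member, as RA stayed near 0. It fell to 18.9, 5.06 and 27.4 CPM in SAN at P14, against 165, 246 and 125 CPM in SAN at E14.5 (-3.52 ± 0.58, adjusted p = 0.000115).

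Cpne5, a copine of the calcium-dependent membrane-binding family, was the positive call of the list, at 2.82 ± 0.66 (adjusted p = 0.0248). Its RA level fell by 1.76 and its SAN change was 1.06 ± 0.46; it lost its call without SAN P14 library 2, SAN E14.5 library 1 or 2, RA P14 library 1 or 2 or RA E14.5 library 2 (2.36 to 2.73) and in edgeR (adjusted p = 0.0593). Tbx18, a factor of the sinus horn and epicardium, fell in both tissues, in SAN by 1.35 and in RA by 1.97, with a difference of 0.62 ± 0.34 (adjusted p = 0.419). Of 13 pacemaker channel members, 0 were called with a positive and 1 with a negative difference; the median was 0.10, and -0.10 with the trimmed-mean factors recomputed. The call was Kcnj5, a subunit of the acetylcholine-gated potassium channel, at 553, 544 and 685 CPM in SAN at P14, against 286, 488 and 393 CPM in SAN at E14.5, and at 557, 1040.1 and 594 CPM in RA at P14, against 192, 173 and 167 CPM in RA at E14.5. It rose in both, by more in RA, with a difference of -1.34 ± 0.31 (adjusted p = 0.0236). That was -0.71 (adjusted p = 0.238) with equal sarcomere levels, and it was not called without SAN P14 library 1 or 2, SAN E14.5 library 2, RA P14 library 2 or RA E14.5 library 2 (-1.06 to -1.33). Its partner Kcnj3 gave -1.68 ± 0.45 (adjusted p = 0.0511).

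Of 26 members in autonomic and cyclic AMP signalling, 0 were called with a positive and 3 with a negative difference. Their median was -0.34 against 0.18 over all genes tested, and 0.29 against 0.71 with equal sarcomere levels. In RA 12 rose and 0 fell, in SAN 7 rose and 2 fell. Adcy1, a calcium-stimulated adenylyl cyclase, fell to 3.52, 10.7 and 7.76 CPM in SAN at P14, against 24.7, 30.6 and 47.4 CPM in SAN at E14.5. In RA it rose to 167, 171 and 135 CPM at P14, against 76.6, 88.1 and 49.3 CPM at E14.5. No 2 groups overlapped and RA was higher throughout, with a difference of -3.31 ± 0.56 (adjusted p = 0.00231). The other 2 calls were Rgs4 and Gnao1, the alpha subunit of Go, at -0.97 ± 0.24 (adjusted p = 0.0351), which was -0.33 (adjusted p = 0.523) with equal sarcomere levels and lost its call without SAN P14 library 1 or 3, SAN E14.5 library 2 or 3, RA P14 library 1, 2 or 3 or RA E14.5 library 1, 2 or 3 (-0.86 to -1.01).

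Gng2, a G protein gamma subunit outside that list, showed opposite changes. It fell to 122, 80.9 and 101 CPM in SAN at P14, against 220.2, 259 and 237 CPM in SAN at E14.5, and rose to 223, 177 and 208 CPM in RA at P14, against 82.1, 128 and 96.4 CPM in RA at E14.5. SAN was above RA at E14.5 and below it at P14 without overlap, with a difference of -2.24 ± 0.30 (adjusted p = 0.000296). Syn2, a synaptic vesicle protein, fell in SAN (-1.70 ± 0.54) and rose in RA (1.59 ± 0.54) with a difference of -3.30 ± 0.77 (adjusted p = 0.0248), lost without SAN P14 library 1 or 2, SAN E14.5 library 1 or 2, RA P14 library 1 or 2 or RA E14.5 library 2 or 3 (-2.83 to -3.40).

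The imprinted growth genes H19 and Igf2 fell in both tissues and further in SAN. H19, a noncoding RNA, fell to 64.6, 23.9 and 29.0 CPM in SAN at P14, against 1647, 1275 and 2386 CPM in SAN at E14.5, and to 600.0, 578 and 508 CPM in RA at P14, against 4619, 5159 and 4694 CPM in RA at E14.5. RA lay above SAN at each stage without overlap, and the difference was -2.45 ± 0.38 (adjusted p = 0.00109). Igf2, the fetal insulin-like growth factor encoded next to H19, fell in SAN (-3.64 ± 0.23) and in RA (-1.94 ± 0.23), a difference of -1.70 ± 0.32 (adjusted p = 0.00601). Fgf13, which modulates sodium channels, fell to 6.79, 9.86 and 7.6 CPM in SAN at P14, against 79.5, 72.3 and 72.8 CPM in SAN at E14.5, while RA at 44.1, 38.2 and 52.9 CPM at P14 and 52.6, 83.4 and 54.6 CPM at E14.5 overlapped. Its difference was -2.61 ± 0.43 (adjusted p = 0.00190).

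Igf1, the postnatal insulin-like growth factor, went the other way. It stood at 374, 526 and 423 CPM in SAN at P14, against 275, 311 and 324 CPM in SAN at E14.5, and at 98.7, 85.2 and 98.4 CPM in RA at P14, against 247, 325 and 261 CPM in RA at E14.5. The tissues overlapped at E14.5, and at P14 every SAN library lay above every RA library, with a difference of 2.07 ± 0.33 (adjusted p = 0.00130) that was called in all 32 alternatives. With Nppb, these made 1 positive and 4 negative calls among the 22 members of the hormone and growth factor list. The name of that list is loose, since it also holds the noncoding H19 and the channel modulator Fgf13. The median of that list was 0.01 on the authors' scaling, 0.63 with equal sarcomere levels and -0.91 in edgeR. All genes tested had 0.18, 0.71 and 0.01 in that order.

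Other genes with a negative difference that were called in all 32 alternatives were Acy3, an aminoacylase, at -4.03 ± 0.79, Tox3, a high mobility group protein, at -3.51 ± 0.53, and Dpt, dermatopontin, a collagen-binding matrix protein. Dpt rose to 221, 395 and 254 CPM in SAN at P14, against 27.0, 31.2 and 63.3 CPM in SAN at E14.5, and to 208, 659 and 199 CPM in RA at P14, against 1.58, 0 and 0.356 CPM in RA at E14.5. SAN was above RA at E14.5, the tissues overlapped at P14, and the difference was -4.77 ± 0.73 (adjusted p = 0.000991). Dpt is also a fibroblast marker, and went against its list: of 15 fibroblast members 0 others were called, and their median was 0.90. The summed level of 16 fibroblast markers was 21303 to 24983 CPM in SAN at P14, 4147 to 7086 CPM in SAN at E14.5, 10762 to 13607 CPM in RA at P14 and 6029 to 7308 CPM in RA at E14.5.

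The remaining largest negative differences lost their calls in at least 1 alternative. They were Cdh4, R-cadherin, at -4.37 ± 1.0, St8sia2, a polysialic acid synthase, at -4.33 ± 0.97, Ptgds, prostaglandin D synthase, at -4.13 ± 1.0, Btnl9, a butyrophilin-like protein, at -4.02 ± 0.84, and Enpp2, autotaxin, at -3.6 ± 0.77. Their adjusted p ran from 0.0130 to 0.0298. Cdh4, St8sia2 and Ptgds fell in SAN with no call in RA, while Btnl9 and Enpp2 rose in RA with no call in SAN. Cdh4 lost its call without SAN E14.5 library 1, RA P14 library 3 or RA E14.5 library 1 or 3 (-3.92 to -4.29), St8sia2 without SAN P14 library 1, SAN E14.5 library 1 or 2, RA P14 library 3 or RA E14.5 library 1 (-3.89 to -4.11), and Ptgds without SAN P14 library 2 or 3, SAN E14.5 library 1 or 2, RA P14 library 1, 2 or 3 or RA E14.5 library 2 or 3 (-3.64 to -4.24). In edgeR the adjusted p was 0.108 for Cdh4 and 0.106 for Ptgds, and in DESeq2 0.0924 for Cdh4. Enpp2 lost it without SAN E14.5 library 1 (-3.09), and Btnl9 with a pseudocount of 4 CPM (-2.55, adjusted p = 0.0562), against -6.72 in DESeq2. Thbd, thrombomodulin, fell to 211, 166 and 125 CPM in SAN at P14, against 658, 820.4 and 454 CPM in SAN at E14.5, with 67.3, 78.7 and 56.0 CPM in RA at P14, against 37.7, 37.0 and 23.9 CPM in RA at E14.5, and its difference was -2.95 ± 0.62 (adjusted p = 0.0130; 0.0916 without SAN E14.5 library 1 and RA P14 library 2).

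Among genes with a positive difference, Rps6ka6, a ribosomal S6 kinase of the RSK family, had the smallest adjusted p of those named. It rose to 75.2, 109.7 and 133 CPM in SAN at P14, against 16.5, 40.6 and 19.2 CPM in SAN at E14.5, and fell to 3.21, 1.25 and 5.32 CPM in RA at P14, against 33.3, 24.5 and 36.9 CPM in RA at E14.5. The tissues overlapped at E14.5 and were apart at P4 (280.3, 233 and 185 CPM in SAN, 4.17, 9.64 and 12.7 CPM in RA) and at P14. The difference was 5.13 ± 0.59 (adjusted p = 6.29e-05), between 4.27 and 5.70 in the 32 alternatives and called in all of them. Its promoter at the first of 2 starts listed by RefSeq is shown (GRCm38.p6, minus strand, chrX:111537910-111538209), with a TATA box in capitals that begins 33 bases before the start.
Rps6ka6: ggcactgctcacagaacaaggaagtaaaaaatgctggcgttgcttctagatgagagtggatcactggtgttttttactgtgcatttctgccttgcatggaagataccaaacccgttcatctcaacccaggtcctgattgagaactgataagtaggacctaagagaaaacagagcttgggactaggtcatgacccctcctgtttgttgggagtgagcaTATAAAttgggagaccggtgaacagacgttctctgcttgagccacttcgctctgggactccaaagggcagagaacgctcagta
The TATA box was in 17 of 213 promoters of genes with a positive difference and 8 of 85 with a negative one. Promoters were found for 154 of the 220 and 60 of the 83 genes, and Smoc2, Sln, Tbx3 and H19 were not among them.

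Fam163a showed a rise in SAN and a fall in RA. It stood at 24.7, 191 and 40.2 CPM in SAN at P14, against 0.434, 3.88 and 6.32 CPM in SAN at E14.5, and at 0.146, 0 and 0 CPM in RA at P14, against 4.06, 2.39 and 9.26 CPM in RA at E14.5. The groups were apart within each tissue, though the P14 SAN libraries spread widely, and the difference was 6.41 ± 1.0 (adjusted p = 0.00109). Lrp2, megalin, an endocytic receptor, rose to 32.6, 19.3 and 15.8 CPM in SAN at P14, against 0, 1.66 and 6.92 CPM in SAN at E14.5, and fell to 1.02, 1.34 and 2.95 CPM in RA at P14, against 18.5, 23.0 and 35.1 CPM in RA at E14.5. RA was the higher tissue at E14.5 and SAN at P14, with no overlap at either stage, and the difference was 6.30 ± 0.84 (adjusted p = 0.000306). Without SAN E14.5 library 1 and RA P14 library 2 it was 5.48 for Lrp2 and 5.69 for Fam163a, both called. Fam163a, near 0 in RA at P14, was 11.32 in DESeq2, 11.12 in edgeR and 4.26 with a pseudocount of 4 CPM, called in each.

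Lrrn4 and Upk1b, among the 12 largest positive differences named, are markers of the epicardium and mesothelium, the surface layer of the heart. All 12 members of that marker list had a difference above 0, with a median of 3.69, and 2 were called. Lrrn4, a leucine-rich repeat protein of mesothelium, had 47.2, 54.8 and 67.7 CPM in SAN at P14, against 0.0723, 6.10 and 49.2 CPM in SAN at E14.5, and 12.4, 0 and 16.5 CPM in RA at P14, against 70.5, 62.4 and 93.4 CPM in RA at E14.5. SAN at E14.5 ranged from near 0 to within the P14 range, and RA at P14 held a library at 0. The difference was 6.58 ± 1.44 (adjusted p = 0.0171). Upk1b, a uroplakin, gave 5.01 ± 1.09 (adjusted p = 0.0162) from 17.0, 28.8 and 24.6 CPM in SAN at P14, against 0, 3.70 and 14.55 CPM in SAN at E14.5, and 7.89, 0.356 and 8.57 CPM in RA at P14, against 30.6, 26.0 and 23.1 CPM in RA at E14.5.

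The summed level of the 13 epicardial markers was 452 to 574 CPM in SAN at P14, 366 to 637 CPM in SAN at E14.5, 158 to 287 CPM in RA at P14 and 609 to 704 CPM in RA at E14.5, and no marker was at 0 in all libraries of a group. The lowest SAN library at E14.5 was library 1 and the lowest RA library at P14 was library 2, those in which Lrrn4 and Upk1b were near 0. The sum was thus lower in RA at P14 than in RA at E14.5, and how much surface layer each capture held was not tested. Without both of those libraries the list's median was 2.06 and 0 of its members were called, with Lrrn4 at 3.89 (adjusted p = 0.0756) and Upk1b at 3.06 (adjusted p = 0.0807). In edgeR 0 were called as well, Lrrn4 at 4.5 (adjusted p = 0.223) and Upk1b at 4.05 (adjusted p = 0.196), and in DESeq2 0, at 4.49 and 4.06. Over all members 86 were called without the 2 libraries, 54 with a positive and 32 with a negative difference, and 83 of them were among the 303.

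Other genes with low values in the same 2 libraries were Rspo1, a Wnt signal enhancer, at 4.96 ± 0.99 (adjusted p = 0.00895; 0.0675 without both), Cyp2s1, a cytochrome P450, at 4.80 ± 1.23 (adjusted p = 0.0400; 0.257 without both), and Tmem151a at 4.65 ± 1.06 (adjusted p = 0.0221; 0.174 without both). Cyp2s1 and Tmem151a lost their calls also without 9 and 6 single libraries, Cyp2s1 without SAN P14 library 1, 2 or 3, SAN E14.5 library 1 or 2, RA P14 library 2 or RA E14.5 library 1, 2 or 3 (3.69 to 4.97), and Tmem151a without SAN P14 library 2, SAN E14.5 library 1 or 2, RA P14 library 2 or RA E14.5 library 1 or 2 (3.92 to 4.65). All 3 were lost in both count tests, with an adjusted p of 0.192 in edgeR and 0.0527 in DESeq2 for Rspo1, 0.353 and 0.453 for Cyp2s1, and 0.337 and 0.195 for Tmem151a. Efemp1, fibulin 3, a matrix protein, gave 4.51 ± 0.96 (adjusted p = 0.0143; 0.108 without both and 0.106 in edgeR). Pkhd1l1, a large receptor-like protein related to fibrocystin, stayed called without both, at 3.59 (adjusted p = 0.0220) against 5.19 ± 1.04 with all libraries, and was not called in edgeR (4.02, adjusted p = 0.0576). Atp2a3, a calcium pump of the endoplasmic reticulum, had 83.6, 9.46 and 54.7 CPM in SAN at P14, against 0, 1.29 and 2.11 CPM in SAN at E14.5, and 4.23, 1.78 and 3.84 CPM in RA at P14, against 5.30, 13.3 and 18.7 CPM in RA at E14.5. Its SAN groups were apart although the P14 libraries differed widely, and the difference was 5.80 ± 1.12 (adjusted p = 0.00767; 0.0753 without both).

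**Figure D4:**
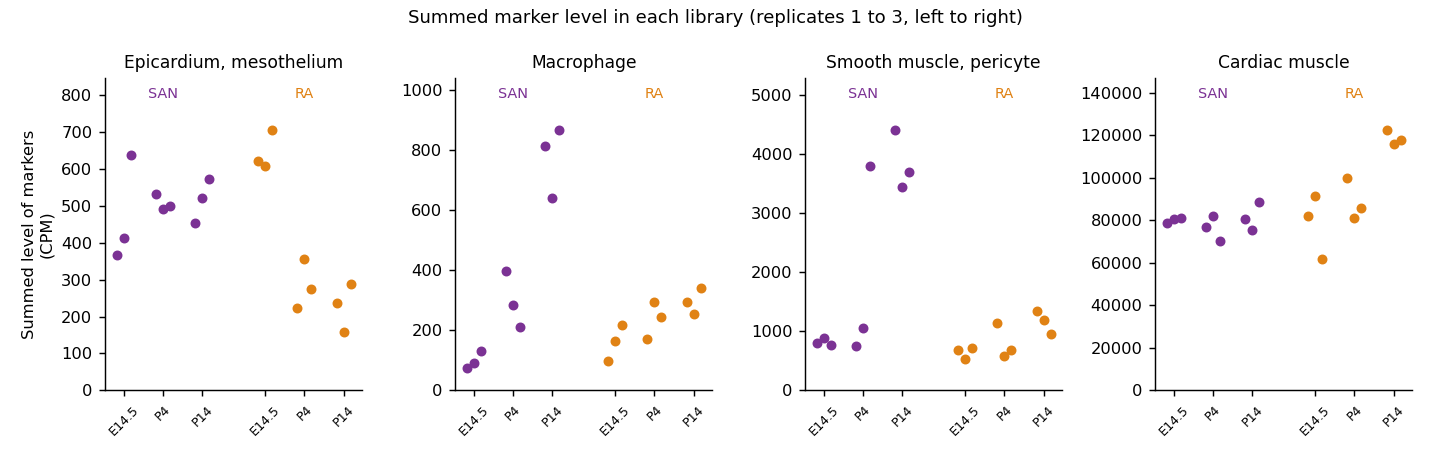
Summed level of marker genes in each of the 18 libraries (vertical axis, CPM) for epicardium and mesothelium, macrophage, smooth muscle and pericyte, and cardiac muscle, by stage (horizontal axis), with SAN in purple and RA in orange and replicates 1 to 3 from left to right. Macrophage sums are highest in SAN at P14, and so are smooth muscle sums, except that SAN P4 library 3 (3802 CPM) lay within the SAN P14 range. The cardiac muscle sum is highest in RA at P14, and the epicardial sum is lower in RA at P4 and P14 than in RA at E14.5.

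Of genes known from smooth muscle, Mylk and Kcnmb1 moved upward in SAN relative to RA. Mylk, the kinase of smooth muscle myosin light chain, stood at 272, 103 and 223 CPM in SAN at P14, against 17.1, 17.3 and 18.8 CPM in SAN at E14.5, and at 36.7, 13.5 and 26.7 CPM in RA at P14, against 43.8, 52.1 and 63.7 CPM in RA at E14.5. RA was the higher tissue at E14.5 and SAN at P14, without overlap, and the difference was 4.43 ± 0.65 (adjusted p = 0.000758), called in all 32 alternatives. Kcnmb1, the smooth muscle subunit of the large-conductance potassium channel, had 30.2, 22.4 and 8.40 CPM in SAN at P14, against 0.940, 0.370 and 4.81 CPM in SAN at E14.5, and 2.19, 1.51 and 0.591 CPM in RA at P14, against 8.12, 11.6 and 7.13 CPM in RA at E14.5, a difference of 5.0 ± 0.90 (adjusted p = 0.00430) that was 3.21 with a pseudocount of 4 CPM and called in all 32 alternatives. Of the 10 smooth muscle and pericyte members Mylk was the only call, 6 rose in SAN and 4 in RA, and the median was 1.34. The summed level of these 12 markers was 3446 to 4407 CPM in SAN at P14, 775 to 889 CPM in SAN at E14.5, 960 to 1351 CPM in RA at P14 and 535 to 722 CPM in RA at E14.5, and the part of this in the values of Mylk and Kcnmb1 was not tested.

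Adhesion and guidance genes of axons held 3 positive calls. Of 24 members, 0 were called with a negative difference, 20 lay above 0, and the median of 0.97 lay between 0.79 and 1.57 under the other scalings and tools. Cntn2, an axonal adhesion molecule that marks the mouse conduction system, rose to 359, 503 and 447 CPM in SAN at P14, against 0.362, 1.05 and 0.401 CPM in SAN at E14.5. In RA it rose to 13.4, 86.1 and 5.17 CPM at P14, against 1.13, 0.553 and 0.535 CPM at E14.5. The tissues overlapped at E14.5 and were apart at P4 and P14, while RA library 2 at P14 was well above the other 2. The difference of 4.58 ± 0.98 (adjusted p = 0.0150) was 5.65 without that library, but 3.64 (adjusted p = 0.243) in edgeR and 3.71 (adjusted p = 0.0996) in DESeq2.

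Sema3d, a secreted semaphorin, rose to 55.2, 58.8 and 53.9 CPM in SAN at P14, against 1.66, 13.1 and 39.5 CPM in SAN at E14.5, and fell to 6.86, 18.1 and 14.9 CPM in RA at P14, against 83.8, 102 and 81.1 CPM in RA at E14.5. The order of the tissues turned without overlap at either end, and the difference was 5.05 ± 0.86 (adjusted p = 0.00233), called in all 32 alternatives. At E14.5 its level in SAN rose from library 1 to library 3, as did those of Lrp2, Lrrn4 and Upk1b. The part of surface layer in this was not tested. Odz4, a teneurin, stood at 412, 588 and 518 CPM in SAN at P14, against 579, 769.9 and 650.1 CPM in SAN at E14.5, which overlapped. In RA it fell to 7.59, 1.60 and 9.30 CPM at P14, against 45, 63.0 and 41.0 CPM at E14.5, and SAN was above RA throughout; the difference was 2.62 ± 0.55 (adjusted p = 0.0134; 0.0699 without SAN E14.5 library 1 and RA P14 library 2). The 12 autonomic neuron markers summed to 58.0 to 65.6 CPM in SAN at P14, 160 to 251 CPM in SAN at E14.5, 28.5 to 37.4 CPM in RA at P14 and 26.3 to 27.6 CPM in RA at E14.5, lower in SAN at P14 than in SAN at E14.5. Glial markers summed to 174 to 202 CPM in SAN at P14, 18.4 to 62.4 CPM in SAN at E14.5, 56.5 to 68.9 CPM in RA at P14 and 32.1 to 41.4 CPM in RA at E14.5.

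Most matrix genes rose in both tissues. Of 31 members, 24 rose in SAN and 23 in RA, where 9.74% and 5.99% of all genes tested rose. A positive difference was called for 3 and a negative one for 0, and the median was 0.40 against 0.18 over all genes tested. It was 0.19 with trimmed-mean factors recomputed and 0.15 in edgeR, against 0.02 and 0.01, with 2 positive calls and 1 negative call in each. With equal sarcomere levels it was 1.03 against 0.71, with 10 positive and 0 negative calls. Tnxb, tenascin X, rose to 305, 379.7 and 324 CPM in SAN at P14, against 6.94, 10.7 and 10.53 CPM in SAN at E14.5, and to 285, 362 and 317 CPM in RA at P14, against 53.5, 107 and 44.5 CPM in RA at E14.5. RA was above SAN at E14.5 and the tissues overlapped at P14, with a difference of 2.72 ± 0.44 (adjusted p = 0.00156) called in all 32 alternatives. Col5a2, a chain of fibrillar collagen V, gave 2.06 ± 0.42 (adjusted p = 0.00996; 0.0858 without SAN E14.5 library 1 and RA P14 library 2). Bgn, biglycan, gave 1.66 ± 0.41 (adjusted p = 0.0338), lost without SAN P14 library 1 or 2, SAN E14.5 library 1 or 2, RA P14 library 1, 2 or 3 or RA E14.5 library 1, 2 or 3 (1.44 to 1.70), in edgeR (1.46, adjusted p = 0.0871) and with trimmed-mean factors recomputed (1.45, adjusted p = 0.0523).

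Macrophage markers held 2 called differences, both positive. Of 12 members, 10 rose in SAN and 2 in RA (9.74% and 5.99% of all genes tested), and 0 fell in either. A difference above 0 was found for 11, and the median of the list was 1.67. That median lay between 1.49 and 2.26 under the other scalings and tools and was 1.24 without SAN E14.5 library 1 and RA P14 library 2. Lyz2, a lysozyme of myeloid cells, rose to 244, 139 and 309.9 CPM in SAN at P14, against 10.6, 4.81 and 5.92 CPM in SAN at E14.5, and to 69.7, 79.3 and 84.8 CPM in RA at P14, against 13.1, 17.7 and 36.6 CPM in RA at E14.5. SAN lay below RA at E14.5 and above it at P14 without overlap, and the difference was 2.95 ± 0.55 (adjusted p = 0.00531), called in all 32 alternatives. F13a1, a coagulation factor subunit made by resident macrophages, gave 4.6 ± 1.08 (adjusted p = 0.0257) and lost its call without SAN P14 library 1 or 3, SAN E14.5 library 1 or 2, RA P14 library 1 or 2 or RA E14.5 library 2 or 3 (3.62 to 4.72). The 16 markers summed to 641 to 866 CPM in SAN at P14, 73.7 to 131 CPM in SAN at E14.5, 255 to 341 CPM in RA at P14 and 98.0 to 217 CPM in RA at E14.5.

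**Figure D5:**
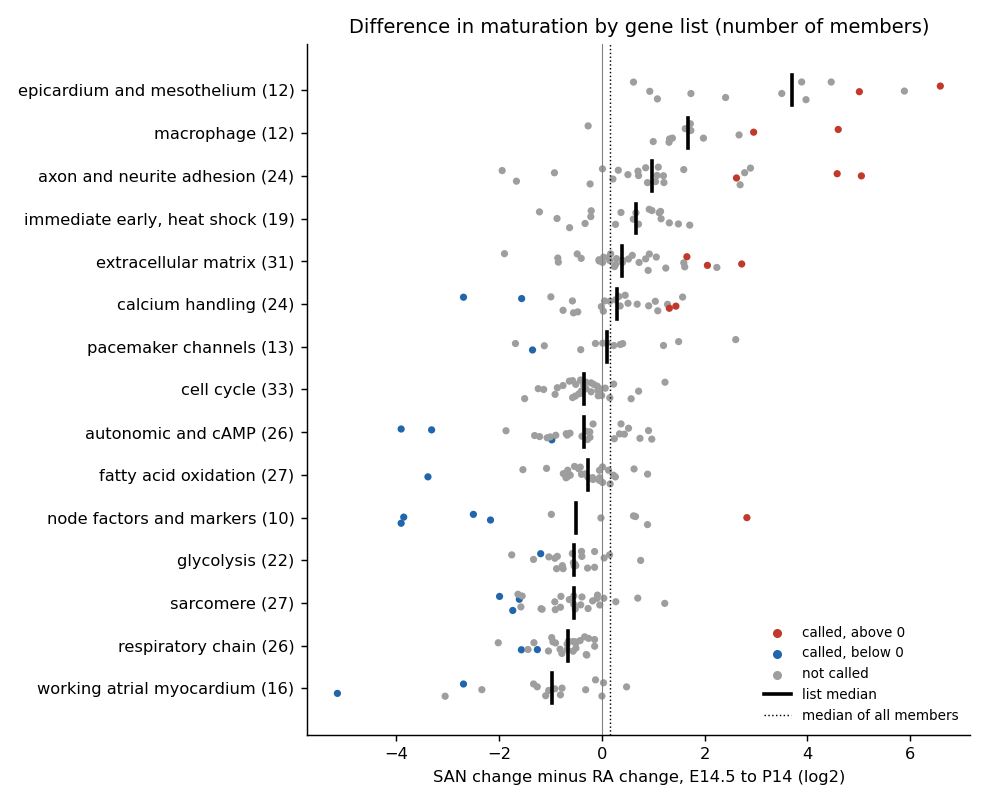
Difference in change (horizontal axis, log2; SAN change minus RA change from E14.5 to P14) of each member of 15 gene lists, which run down the page with the number of members in brackets. Points are genes, red where called above 0 and blue where called below 0; the black bar is the list's median and the dotted line the median of all members. Epicardial and macrophage markers lie to the right and working atrial, respiratory chain and sarcomere genes to the left.

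Some genes fell in both tissues and by less in SAN. Cdkn1c, an imprinted inhibitor of cell division, fell to 16.1, 34.4 and 14.48 CPM in SAN at P14, against 123, 78.8 and 175 CPM in SAN at E14.5, and to 18.7, 39.4 and 21.1 CPM in RA at P14, against 960.1, 727 and 714 CPM in RA at E14.5. RA was higher at E14.5 and the tissues overlapped at P14, with a difference of 2.42 ± 0.49 (adjusted p = 0.00973). Epb4.1l3, a membrane skeleton protein, gave 2.06 ± 0.36 (adjusted p = 0.00365), and both were called in all 32 alternatives. Acvr1c, an activin receptor, fell in RA to 0.438, 0 and 0 CPM at P14, against 57.2, 55.1 and 56.1 CPM at E14.5, and gave 3.87 ± 0.87 (adjusted p = 0.0199), lost without SAN P14 library 3 or SAN E14.5 library 1 (3.09 to 3.20) and in edgeR (6.0, adjusted p = 0.108) and DESeq2 (adjusted p = 0.0950). St8sia1, the GD3 ganglioside synthase, stood at 2.13, 3.07 and 1.2 CPM in SAN at P14, against 16.3, 6.84 and 13.4 CPM in SAN at E14.5, and at 0.146, 4.37 and 0 CPM in RA at P14, against 93.9, 70.2 and 91.8 CPM in RA at E14.5. Its difference of 3.5 ± 0.84 (adjusted p = 0.0274) was lost without SAN P14 library 1 or 2, SAN E14.5 library 2, RA P14 library 1 or 3 or RA E14.5 library 1, 2 or 3 (3.07 to 3.64) in edgeR (adjusted p = 0.324) and in DESeq2 (adjusted p = 0.430). Alcam, an adhesion molecule, gave 2.24 ± 0.50 (adjusted p = 0.0190), lost without SAN P14 library 3, SAN E14.5 library 1 or RA E14.5 library 1 (1.95 to 2.23). Lepr, the leptin receptor, rose in both tissues and more in SAN, at 3.21 ± 0.75 (adjusted p = 0.0246), lost without SAN P14 library 1, SAN E14.5 library 1 or 2, RA P14 library 2 or RA E14.5 library 1 or 2 (2.80 to 3.08) and in edgeR (adjusted p = 0.0561).

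The genes that fell in RA with no call in SAN and the largest differences were Ddit4l, an inhibitor of mTOR signalling, at 4.30 ± 1.07, Duxbl, a homeobox factor, at 3.92 ± 0.87, Krt7, a keratin of simple epithelia, at 3.86 ± 0.99, Scube3, a secreted signalling protein, at 3.70 ± 0.88, and Ildr2 at 3.67 ± 0.96. Their adjusted p ran from 0.0190 to 0.0445. Duxbl lost its call without SAN P14 library 1, RA P14 library 1 or 2 or RA E14.5 library 2 (3.54 to 3.74), and Scube3 without SAN P14 library 1, SAN E14.5 library 1 or 2, RA P14 library 2 or RA E14.5 library 1 or 2 (2.97 to 3.80). Ddit4l, Krt7 and Ildr2 lost theirs in 9, 9 and 13 of the 18 fits that left out 1 library: Ddit4l without SAN P14 library 2 or 3, SAN E14.5 library 1 or 2, RA P14 library 2 or 3 or RA E14.5 library 1, 2 or 3 (3.65 to 4.51), Krt7 without SAN P14 library 1, 2 or 3, SAN E14.5 library 1, RA P14 library 2 or 3 or RA E14.5 library 1, 2 or 3 (3.09 to 4.14), and Ildr2 without SAN P14 library 1, 2 or 3, SAN E14.5 library 1 or 2, RA P14 library 1, 2 or 3, RA P4 library 1 or 2 or RA E14.5 library 1, 2 or 3 (3.02 to 3.98). In edgeR none of the 5 was called, with an adjusted p of 0.0684 for Ddit4l, 0.0912 for Duxbl, 0.285 for Krt7, 0.0874 for Scube3 and 0.130 for Ildr2. Krt7 and Ildr2 were not called in DESeq2 either (0.140 and 0.0826), nor was Ildr2 with trimmed-mean factors recomputed (0.0549) or equal upper quartiles (0.0573). Flt1, a receptor for vascular endothelial growth factor, was the 1 call of 16 endothelial members (1.52 ± 0.38, adjusted p = 0.0345), in a list with a median of 0.87, and was lost without SAN P14 library 2, SAN E14.5 library 1 or 2, RA P14 library 2 or 3 or RA E14.5 library 1 or 2 (1.3 to 1.51), in edgeR (adjusted p = 0.0788) and with equal upper quartiles (0.0518).

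Other lists held few or no called differences. Of 33 cell cycle members, 32 fell in SAN and 33 in RA, where 14.5% and 16.7% of all genes tested fell, and 0 had a called difference. The median difference was -0.35, or 0.26 with equal sarcomere levels, below the 0.18 and 0.71 of all genes tested. Of 19 immediate early and heat shock members, 14 rose in SAN and 10 in RA, with 0 calls and a median of 0.67. Among 25 genes of BMP, Wnt and Notch signalling 0 were called, with a median of 0.27. Of 22 potassium channel members only Kcnj5 was called, and of 10 genes of sodium channels and conduction only Cntn2. A difference that did not pass is not shown to be absent: the SE of the difference was 0.46 for Gja1, 0.89 for Gja5 and 0.75 for Nkx2-5, whose values were 0.04, 0.48 and 0.00. Their adjusted p was 0.981, 0.862 and 0.999, and Nkx2-5, Gja1 and Gja5 changed sign in some alternatives.

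Split at P4, the difference in change was called for 163 members from E14.5 to P4, 92 positive and 71 negative (1.15% of all genes tested, 0.609% positive and 0.541% negative). From P4 to P14 it was called for 21 members, 18 positive and 3 negative (0.171% of all genes tested, 0.148% positive and 0.0228% negative). The 2 steps share the P4 libraries, so that a high or low P4 value pushes them in opposite directions. Both steps were called for 5 members, none of them called over the whole interval; they are named here after their values were seen. Gja1, connexin 43, the main connexin of working muscle, had 56.4, 28.1 and 48.0 CPM in SAN at E14.5, 7.52, 11 and 13.1 CPM at P4 and 44.2, 155 and 59.9 CPM at P14. In RA it had 188, 179 and 212 CPM at E14.5, 454, 387 and 456 CPM at P4 and 359, 305 and 319 CPM at P14. SAN was below RA at every stage, and furthest below it at P4, with steps of -3.10 ± 0.46 (adjusted p = 0.00121) and 3.13 ± 0.46 (adjusted p = 0.00326).

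Hamp, hepcidin, a regulator of iron export, was near 0 in both tissues at E14.5. At P4 it stood at 31.8, 86.3 and 60.7 CPM in SAN and at 1.12, 0 and 0 CPM in RA, and at P14 at 226, 456 and 135 CPM in SAN and 112, 278 and 123 CPM in RA. SAN was thus ahead of RA at P4 alone, with steps of 5.06 ± 0.73 (adjusted p = 0.00102) and -4.83 ± 0.73 (adjusted p = 0.00346). Tuba4a, an alpha tubulin, did the same, with 196, 229 and 158 CPM in SAN and 24.2, 32.5 and 13.3 CPM in RA at P4, and 143, 159.9 and 214 CPM in SAN and 149, 191 and 138 CPM in RA at P14. Nts, neurotensin, and Nov, a matricellular growth regulator, were higher in RA at P4 alone: Nts at 1.1, 1.90 and 1.65 CPM in SAN and 13.2, 32.6 and 32.1 CPM in RA, and Nov at 5.14, 33.3 and 84.8 CPM in SAN and 109, 169 and 161 CPM in RA. SAN library 1 at P4 held the lowest Nov value, far below SAN library 3.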

How the data were processed

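Laser-captured SAN and RA were measured by RNA sequencing after single-primer amplification of total RNA with a kit that keeps no strand information, so reads of overlapping or antisense genes cannot be told apart. Per the submitters' processing notes, the reads were aligned with TopHat2 2.0.6 to mm8 and edgeR was used; the counter was not given in the sources used here. The deposited values are a normalized signal, gene read counts times 1 factor per library, with library totals well above those of CPM. Whole reads were recovered from their steps: in all 18 libraries 100% of values came out whole within 0.1 of a read. CPM here is the deposited value divided by the constant 24.3, so the authors' scaling was kept.

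The members and gene lists were chosen with earlier results of these data known, and the members by the group means of the same libraries. Named genes were those of a fixed list (Hcn4, Isl1, Tbx3, Shox2, Tbx18, Nppa, Nppb, Bmp10, Gja1, Gja5 and Nkx2-5), the 12 members with the largest called difference in each direction (leaving out unnamed gene models and hemoglobin, histocompatibility, immunoglobulin, ribosomal protein, mitochondrial and sex-chromosome marker genes), up to 4 called per gene list by smallest p, and up to 5 per class of change by size. Other genes, such as Kcnj3, Igf2, Mb, Ckmt2, Cacna1g, Cacna1h and Fos, were chosen after their values were seen. Some genes that these rules pick are not reported here.

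Genes reaching 1 CPM in 3 or more libraries entered a fit on log2(CPM + 1) with limma 3.58.1 (trend, group means of the 18 libraries), with Benjamini-Hochberg adjustment. The count tests of edgeR 4.0.16 (quasi-likelihood) and DESeq2 1.42.0 on the recovered reads were alternatives, next to other scalings, pseudocounts, filters, floors for members, library weights, a replicate block and each library left out. One alternative, without SAN E14.5 library 1 and RA P14 library 2, was chosen after seeing the data. Same-numbered libraries of different groups did not deviate together (correlation -0.09 to 0.12). Each pair of libraries in a group differed by 9.09 to 92.0 times the sampling noise (chi-square per degree of freedom over genes); the closest pair was RA P14 libraries 1 and 3. Intervals and floors of reads cover counting error only, as there were no molecular identifiers. R 4.3.3 and Python 3.11.15 were used. The main limma fit was tested on simulated data for the difference in change, and the count tests and other alternatives were not. Libraries of the Isl1 deletion set at another stage were not used here.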

Additional observations from a re-analysis of the deposited data

Results flagged for a closer look

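Between SAN and RA the change from E14.5 to P14 differed, by the test of the difference itself, for 303 members. For 14 named members the changes in the 2 tissues were in addition called in opposite directions. Lrrn4 had a difference of 6.58, Fam163a of 6.41, Lrp2 of 6.30, Rps6ka6 of 5.13, Sema3d of 5.05, Upk1b of 5.01, Kcnmb1 of 5.0, Rspo1 of 4.96 and Tmem151a of 4.65, having risen in SAN and fallen in RA. Nppb had a difference of -5.14, Smoc2 of -3.85, Adcy1 of -3.31, Syn2 of -3.30 and Gng2 of -2.24, having fallen in SAN and risen in RA. Of these, Lrrn4, Upk1b, Rspo1 and Tmem151a were not called in edgeR or DESeq2. Those 4 were not called either without SAN E14.5 library 1 and RA P14 library 2, at 3.89 (adjusted p = 0.0756 in limma), 3.06 (0.0807), 3.36 (0.0675) and 3.44 (0.174), nor was Syn2 (-3.14, adjusted p = 0.125 in limma).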

How the results depend on the processing

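The difference in change was called for 303 members, 220 positive and 83 negative. The count was 577 (428 positive, 149 negative) in the fit of the 12 libraries alone, 567 in DESeq2 with 254 negative, 1059 (742 and 317) with library weights, 1811 (1765 and 46) with equal sarcomere levels, and 86 (54 and 32) without SAN E14.5 library 1 and RA P14 library 2. edgeR called 105 positive differences, and 149 negative ones were called with equal upper quartiles and 142 with trimmed-mean factors recomputed. With 1 library left out, the count lay between 154 and 434, 94 to 319 positive and 47 to 116 negative.

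The 1357 rises and 2270 falls in SAN stood against 1670 and 1506 in edgeR, 1983 and 1188 with equal sarcomere levels, 2001 and 1732 in DESeq2 and 1782 and 1722 with trimmed-mean factors recomputed. The 926 rises and 2500 falls in RA moved to 1708 and 1297 in DESeq2, 1540 and 1182 with trimmed-mean factors recomputed, 1454 and 1000 in edgeR, and 1396 and 1343 with equal upper quartiles. Library weights gave 6164 RA calls, 1604 up and 4560 down, and equal sarcomere levels gave 4157 RA falls. At P4, DESeq2 called 633 members higher in SAN, and 281 were lower in SAN with equal sarcomere levels; without 1 library the number lower was 303 to 678. The causes of these shifts were not tested.

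Replicate numbers gave no sign of pairing in the values, which cannot tell whether same-numbered libraries shared an animal. With the number as a block the difference was called for 291 members, and for 247 with the number within stage; no count moved by over 1.5 times.

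Gja5, not called, turned to -0.0424 in DESeq2, -0.0640 in edgeR and -0.0823 without SAN E14.5 library 2, within -0.0823 to 1.26 when 1 library was left out. Gja1 turned to -0.17 with trimmed-mean factors recomputed, -0.0240 in edgeR, -0.16 with equal upper quartiles and -0.0386 with library weights, and lay between -0.49 and 0.41 when 1 library was left out, below 0 in 4 of these fits. Nkx2-5 turned to -0.16 in DESeq2, -0.22 with trimmed-mean factors recomputed, -0.20 in edgeR and with equal upper quartiles, -0.35 with library weights and -0.0901 with a pseudocount of 0.25 CPM, and lay between -0.49 and 0.37 when 1 library was left out, below 0 in 5 of these fits. Without 1 library, named-gene values kept direction and call in 1180 of 1404 cases, 210 lost the call, 4 gained it and 10 reversed. Of the 72 named genes called, 25 lost the call in edgeR, 13 in DESeq2, 12 with a pseudocount of 0.25 CPM, 11 with the number as a block within stage and 38 without SAN E14.5 library 1 and RA P14 library 2. Genes with values under a few CPM rest on few reads, and their fold changes depend on the pseudocount.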

Other observations

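Several genes of muscle maturation and pacemaking rose in both tissues with no called difference. Mb, myoglobin, rose by 5.33 in SAN and 7.34 in RA on the log2 scale, with a difference of -2.01 ± 0.97 (adjusted p = 0.341 in limma). Ckmt2, the mitochondrial creatine kinase of muscle, rose by 3.59 in SAN and 3.72 in RA, a difference of -0.14 ± 1.08 (adjusted p = 0.971 in limma). Cacna1g, a T-type calcium channel, rose by 3.29 in SAN and 2.88 in RA, with a difference of 0.41 ± 0.60. Fos, an immediate early gene, rose by 4.6 in SAN and 3.62 in RA, with a difference of 0.98 ± 1.2. Cacna1h, another T-type channel, fell by 3.56 in RA and was not called in SAN, and its difference of 2.61 ± 0.95 did not pass (adjusted p = 0.165 in limma).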
